A study of Mus musculus with 6 samples.

Results

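The genes described here are 38 genes of autophagosome formation and cargo capture, chosen by name from the 54532 genes of a count table of AML12 cells. All 38 were found once in the table and all 38 passed the filter on low counts. AML12 is an established hepatocyte line, grown from the liver of a mouse transgenic for human TGF-alpha. RNA sequencing was done on 6 libraries of wild-type AML12 cells after 24 h, 3 labelled PP (250 µg/ml per the design text) and 3 labelled PA/OA (400 nM and 800 nM per the design text). PA/OA was the modeling reagent of the study. The labels name PP alone for the first group, and the design text does not settle whether those cells also received PA/OA. The series title names Camellia oleifera meal peptides and the AMPK, ACC and CPT-1 pathway, and untreated control cells were not analysed here. Whether the 3 libraries of a group are separate cultures is not stated in the labels, so p-values measure only the spread between libraries, which may be technical.

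Autophagy encloses part of the cytoplasm in a double membrane, the autophagosome, and delivers it to lysosomes. A kinase complex (ULK1 or ULK2 with ATG13, ATG101 and FIP200) starts the process, and a phosphatidylinositol 3-kinase complex built around VPS34 and Beclin 1 marks the membrane. Lipid carriers and WIPI proteins then enlarge it, and ubiquitin-like conjugation enzymes attach ATG8 proteins (LC3 and GABARAP) to it, which bind receptors that carry the cargo. In hepatocytes this route is known for the turnover of mitochondria, protein aggregates and lipid droplets. Its transcripts alone do not measure its flux, and no protein was measured.

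Total counts ran from 24113169 to 32560589 per library. Levels are given as CPM, counts scaled to 1000000 per library after TMM adjustment of the totals, which takes most genes to be level between libraries. Epithelial keratin genes of hepatocytes were high (Krt8 at 1994 ± 113 CPM in PP and 1775 ± 99.3 CPM in PA/OA), but Alb stood at only 9.90 ± 1.38 CPM in PP and 12.2 ± 1.36 CPM in PA/OA (SD, n = 3 each), and Fgb held 0 counts over the PP and 1 count over the PA/OA libraries. Hnf4a, a hepatocyte transcription factor, had 26.8 ± 1.54 CPM in PP and 71.7 ± 5.06 CPM in PA/OA. Among markers of other liver cells, Adgre1 and Epcam had no count in any library, while the bile duct keratin gene Krt19 reached 3513 ± 206 CPM in PP and 2011 ± 60.3 CPM in PA/OA. The 3 macrophage and leukocyte markers summed to between 22.3 and 25.1 CPM in PP, here without the TMM adjustment, and between 3.23 and 3.82 in PA/OA. Most of that sum was Cd68, a lysosomal membrane protein gene, at 27.3 ± 1.63 CPM in PP and 2.78 ± 0.280 CPM in PA/OA after that adjustment, with Ptprc at 8 counts over the PP and 20 over the PA/OA libraries. The 11 hepatocyte markers measured summed to between 3219.7 and 3460.4 in PP without the adjustment and between 3491 and 3765 in PA/OA, and the 3 bile duct markers to between 3270.4 and 3569 in PP and between 2662 and 2839.8 in PA/OA. Endothelial and stellate cell markers each summed to at most 6.18 in any library. These marker genes are named after their values were seen, and their part in the results below was not tested. In bulk RNA fewer cells of a type and less RNA per cell cannot be told apart.

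In PP, 27 of the 38 genes rose and 7 fell, and 4 did not pass the test. A gene was called by the quasi-likelihood F-test of edgeR where its p, adjusted by Benjamini-Hochberg over all 15718 genes tested, was under 0.05. Over that whole set 75.0% of genes were called, 35.1% of the set higher and 39.9% lower, beside 71.1% and 18.4% of the members. At least 2-fold rises were called for 6 of the 38 members, beside 12.1% of all genes tested, a share near that of the members. At least 2-fold falls were called for 1 of the 38, beside 24.5% of all genes. The median log2 fold change (PP minus PA/OA) was 0.57 over the members and -0.09 over all genes tested. With scaling by library size only, which moves the median of all genes by -0.43, 19 members were higher and 13 lower, and the whole table then had 3235 higher and 8910 lower. With upper-quartile scaling, which moves it by -0.24, the members split into 21 higher and 8 lower, against 4241 and 7688 of all genes. With the trend of fold change with abundance removed, 22 members were higher and 10 lower, against 5609 and 5567 of all genes. The groups did not overlap, PP above PA/OA, for 29 members, and for 36.1% of all genes tested. They did not overlap in the other direction for 7 members, and for 41.4% of all genes.

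**Figure D1:**
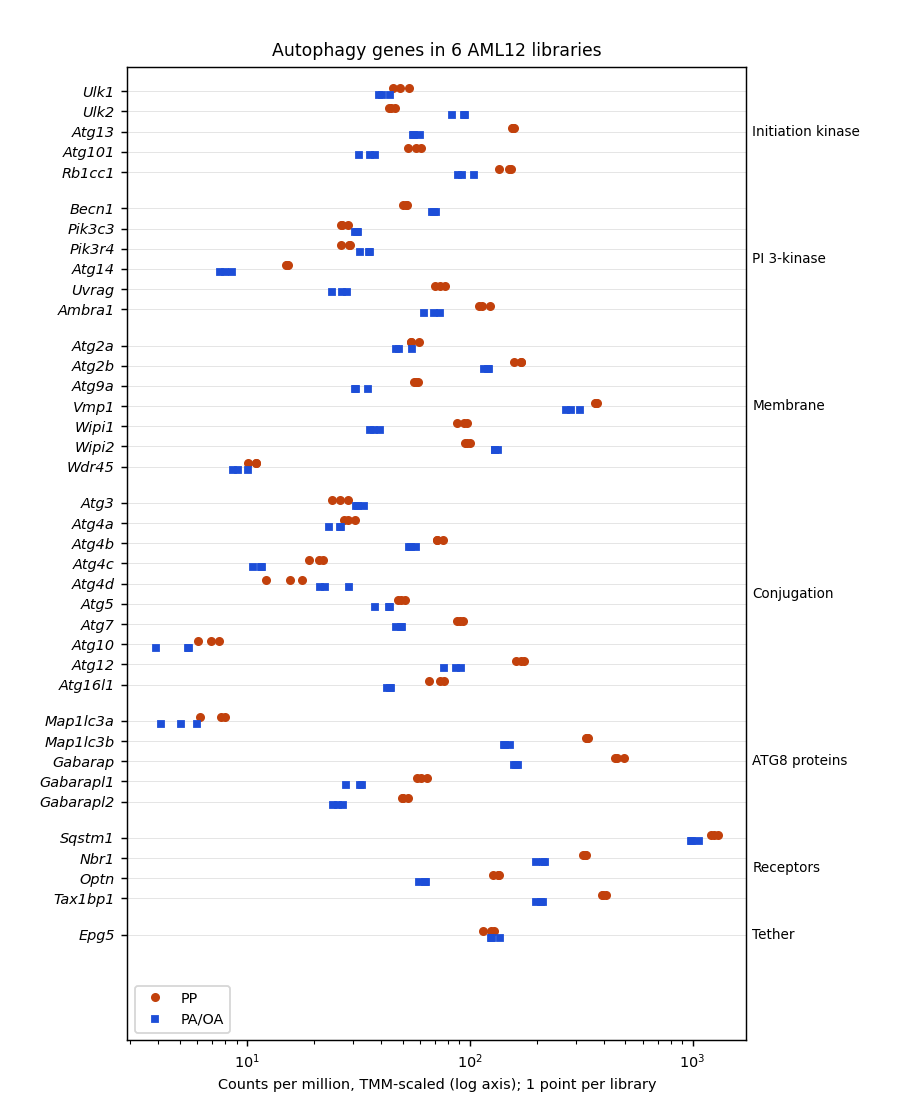
TMM-scaled CPM (log axis) of the 38 genes in each library, by role, with the 3 PP libraries as circles above the 3 PA/OA libraries as squares. Points of the groups overlap for 2 genes, Atg2a and Epg5, and the levels span from 3.89 CPM for Atg10 in 1 PA/OA library to 1302 CPM for Sqstm1 in 1 PP library.

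In the kinase complex that starts autophagy, 4 of the 5 genes rose and 1 fell, though the sign of Ulk1, one of the 4, turned with library size only. Of all genes tested, 35.1% were higher and 39.9% lower. Atg13 had the largest rise and Ulk2 was the gene that fell. Atg13, the adaptor that ties the kinase to the rest of the complex (chromosome 2, 91674618 to 91710576, build mm10), had 158, 154 and 157 CPM in PP, against 59.7, 56.1 and 55.4 CPM in PA/OA. Every PP library was above every PA/OA library, and the log2 fold change was 1.45 ± 0.06 (SE; adjusted p = 1.49e-15, edgeR), or 2.74-fold. Ulk2, one of the paired kinase genes (chromosome 11, 61775649 to 61855073), had 46.2, 44.3 and 43.6 CPM in PP, against 94.7, 95.7 and 83.2 CPM in PA/OA. It fell by 1.03 on the log2 scale (SE 0.07; adjusted p = 1.09e-11, edgeR), a level 2.04 times as high in PA/OA, with no overlap between the groups.

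Ulk1, the other kinase gene (chromosome 5, 110784488 to 110810097), had 48.7, 45.1 and 53.6 CPM in PP, against 43.9, 39.3 and 40.4 CPM in PA/OA. The log2 fold change, 0.25 at TMM scaling (adjusted p = 0.00612, edgeR), was 0.017 with upper-quartile scaling (adjusted p = 0.855, edgeR) and -0.18 with library size only (adjusted p = 0.0497, edgeR), so its direction depended on the scaling. The ratio of Ulk1 to Ulk2 counts inside a library does not depend on scaling. That ratio was 1.06, 1.02 and 1.23 in PP, against 0.463, 0.410 and 0.486 in PA/OA, 2.43-fold higher in PP. Atg101, which stabilises ATG13, rose by 0.70 ± 0.08, and Rb1cc1, which codes for the scaffold FIP200, rose by 0.62 ± 0.07 (log2, SE). Both were higher under each of the 17 alternative settings, Rb1cc1 by as little as 0.19 with library size only. An antisense gene shares 3.8% of the Rb1cc1 exon bases, and held 104 counts over the PP and 460 over the PA/OA libraries.

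The phosphatidylinositol 3-kinase genes parted by role. The 3 genes of the shared core were lower in PP and the 3 genes that direct or regulate it were higher. Calls either way were common, with 35.1% of all genes tested higher and 39.9% lower. Becn1, the core scaffold (chromosome 11, 101285952 to 101302286), had 50.3, 52.6 and 51.8 CPM in PP, against 67.9, 70.6 and 69.5 CPM in PA/OA. Pik3c3, the lipid kinase VPS34 (chromosome 18, 30272747 to 30348126), had 26.7, 26.4 and 28.3 CPM in PP, against 31.7, 31.4 and 30.7 CPM in PA/OA. Pik3r4, its regulatory subunit VPS15, had 28.9, 26.5 and 29.0 CPM in PP, against 35.6, 32.1 and 35.2 CPM in PA/OA. These are small falls without overlap between the groups, with log2 fold changes of -0.43 ± 0.06 for Becn1 (adjusted p = 3.66e-06, edgeR), -0.20 ± 0.08 for Pik3c3 (adjusted p = 0.0300, edgeR) and -0.29 ± 0.08 for Pik3r4 (adjusted p = 0.00394, edgeR). The call of Pik3c3 was lost without any 1 of 5 libraries (all but PA/OA replicate 3), where adjusted p ran from 0.0543 to 0.125 by edgeR, and with no filter on low counts (0.0891). Becn1 shares 43.9% of its exon bases with Cntd1 on the other strand, which held 37 counts over the PP and 15 over the PA/OA libraries. If strand was ignored in counting, reads in the shared bases cannot be assigned to 1 gene with certainty, so the counts of Becn1 are uncertain.

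Uvrag, which joins the core in the complex of endosomes and late autophagosomes (chromosome 7, 98885021 to 99141141), had 70.1, 73.7 and 77.8 CPM in PP, against 26.7, 24.2 and 28.2 CPM in PA/OA. Atg14, which joins it in the complex that forms autophagosomes (chromosome 14, 47540893 to 47570649), had 15.4, 15.2 and 15.1 CPM in PP, against 7.97, 7.56 and 8.61 CPM in PA/OA. Ambra1, an activator that binds Beclin 1 (chromosome 2, 91730134 to 91918849), had 123, 110.1 and 113 CPM in PP, against 69.3, 62.1 and 73.8 CPM in PA/OA. In all 3 genes the PP libraries stood clear above the PA/OA libraries. The log2 fold changes were 1.49 ± 0.08 for Uvrag (adjusted p = 1.15e-13, edgeR), 0.92 ± 0.12 for Atg14 (adjusted p = 6.63e-07, edgeR) and 0.75 ± 0.07 for Ambra1 (adjusted p = 1.5e-09, edgeR). In the annotation an antisense gene covers 17.6% of the exon bases of Uvrag, with 13 counts over the PP and 54 over the PA/OA libraries.

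Set against Becn1 in the same library, Uvrag was 1.39, 1.4 and 1.50 in PP, against 0.393, 0.343 and 0.405 in PA/OA, a 3.77-fold difference. The Atg14 to Becn1 ratio was 0.305, 0.289 and 0.291 in PP, against 0.117, 0.107 and 0.124 in PA/OA, or 2.55-fold. The core genes kept closer to each other. The ratio of Pik3c3 to Becn1 was 1.17-fold higher in PP, and that of Pik3r4 to Becn1 overlapped between the groups, at 0.574, 0.504 and 0.561 in PP, against 0.524, 0.455 and 0.506 in PA/OA. These pairs were chosen after the values were seen, so the ratios are given without a test.

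**Figure D2:**
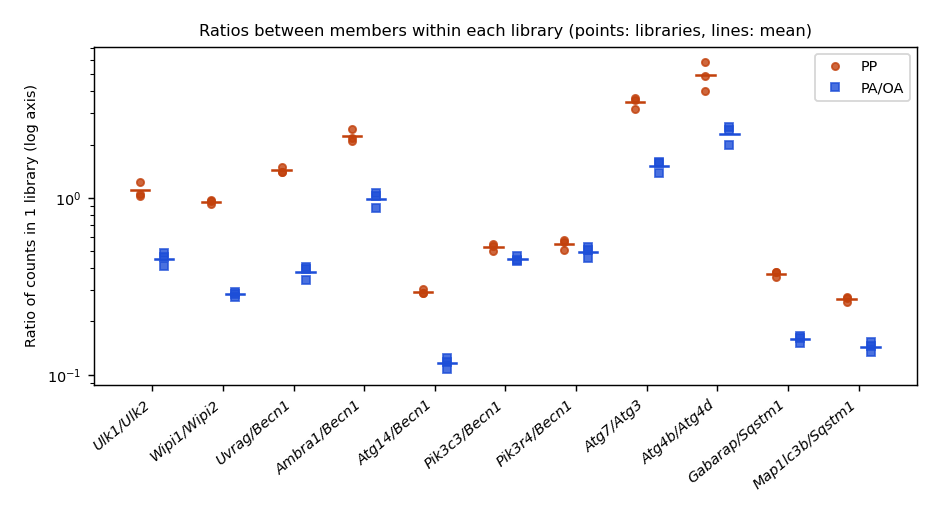
Ratio of the counts of paired members within each library (log axis), PP as circles left of PA/OA as squares, with lines at the group means. Partner and paralog ratios such as Uvrag to Becn1 and Wipi1 to Wipi2 stand apart by group in every library, while Pik3r4 to Becn1 overlaps.

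Among the 7 genes that supply and mark the growing membrane, 4 rose, 1 fell and 2 did not pass, and 1 of the 4, Vmp1, turned sign at other scalings. The shares over all genes tested were 35.1% higher and 39.9% lower. The genes Wipi1 and Wipi2, whose products bind the lipid made by VPS34, went opposite ways. Wipi1 (chromosome 11, 109573331 to 109611967) had 97.5, 94 and 87.8 CPM in PP, against 39.5, 37.3 and 35.5 CPM in PA/OA. Wipi2 (chromosome 5, 142627698 to 142670588) had 101, 97.6 and 95.1 CPM in PP, against 134, 129.8 and 130.1 CPM in PA/OA. Wipi1 rose by 1.31 ± 0.07 on the log2 scale (adjusted p = 1.52e-13, edgeR), and Wipi2 fell, with -0.42 ± 0.05 on that scale (adjusted p = 4.26e-07, edgeR). Inside a library the Wipi1 to Wipi2 ratio was 0.969, 0.963 and 0.923 in PP, against 0.295, 0.287 and 0.273 in PA/OA. Per length, Wipi1 stood at 21.1 ± 1.11 CPM per kb in PP and 8.49 ± 0.446 CPM per kb in PA/OA. Wipi2 stood at 9.28 ± 0.259 CPM per kb in PP and 12.4 ± 0.216 CPM per kb in PA/OA. The order of their length-scaled levels thus differed between the groups, which rests on the deposited gene lengths. In counts Wipi1 was below Wipi2 in every library. Wdr45, which codes for the related protein WIPI4, had 10.7 ± 0.490 CPM in PP and 9.29 ± 0.719 CPM in PA/OA and did not pass (adjusted p = 0.176, edgeR), with a 95% interval of the log2 fold change of -0.06 to 0.46. It was called higher with the abundance trend removed (0.43, adjusted p = 0.00649, edgeR) and was negative with upper-quartile scaling and with library size only. Gm45208, on the same strand, shares 24.7% of the exon bases of Wdr45 and held no counts.

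Atg9a, the membrane protein of the seed vesicles (chromosome 1, 75180860 to 75192196), had 57.7, 58.8 and 56.5 CPM in PP, against 35.0, 30.5 and 31.0 CPM in PA/OA, with no overlap. It rose by 0.84 ± 0.08 (adjusted p = 1.36e-09, edgeR). A processed transcript on the same strand shares 31.8% of its exon bases and held 1 count over the PP and 4 over the PA/OA libraries. Reads in the shared bases cannot be told apart by strand, so the counts of Atg9a are uncertain. Atg2b, a lipid carrier, had 170.3, 157 and 170.1 CPM in PP, against 122, 121 and 116 CPM in PA/OA. Its rise of 0.47 ± 0.06 was no longer called with library size only (0.035, adjusted p = 0.586, edgeR) or with the trend of fold change with abundance removed (0.062, adjusted p = 0.312, edgeR). Its paralog Atg2a had 59.0, 54.5 and 54.6 CPM in PP, against 55.3, 46.6 and 48.3 CPM in PA/OA, where the groups overlapped. Atg2a was not called (adjusted p = 0.0582, edgeR; 95% interval of the log2 fold change 0.01 to 0.31). It was called higher without PA/OA replicate 1 (0.24, adjusted p = 0.0132, edgeR), PP replicate 2 (0.20, adjusted p = 0.0420, edgeR) or PP replicate 3 (0.20, adjusted p = 0.0417, edgeR), and lower when scaled by library size only (-0.27, adjusted p = 0.00323, edgeR). Vmp1, a lipid scramblase of the endoplasmic reticulum and the most abundant of the 7 per length, had 363, 374 and 369 CPM in PP, against 285, 313 and 271 CPM in PA/OA. Its log2 fold change of 0.35 became -0.086 with library size only (adjusted p = 0.158, edgeR) and -0.18 with the abundance trend removed (adjusted p = 0.00403, edgeR), so no direction is given for it. The Vmp1 transcript unit also contains the microRNA gene Mir21a, which held no counts.

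**Figure D3:**
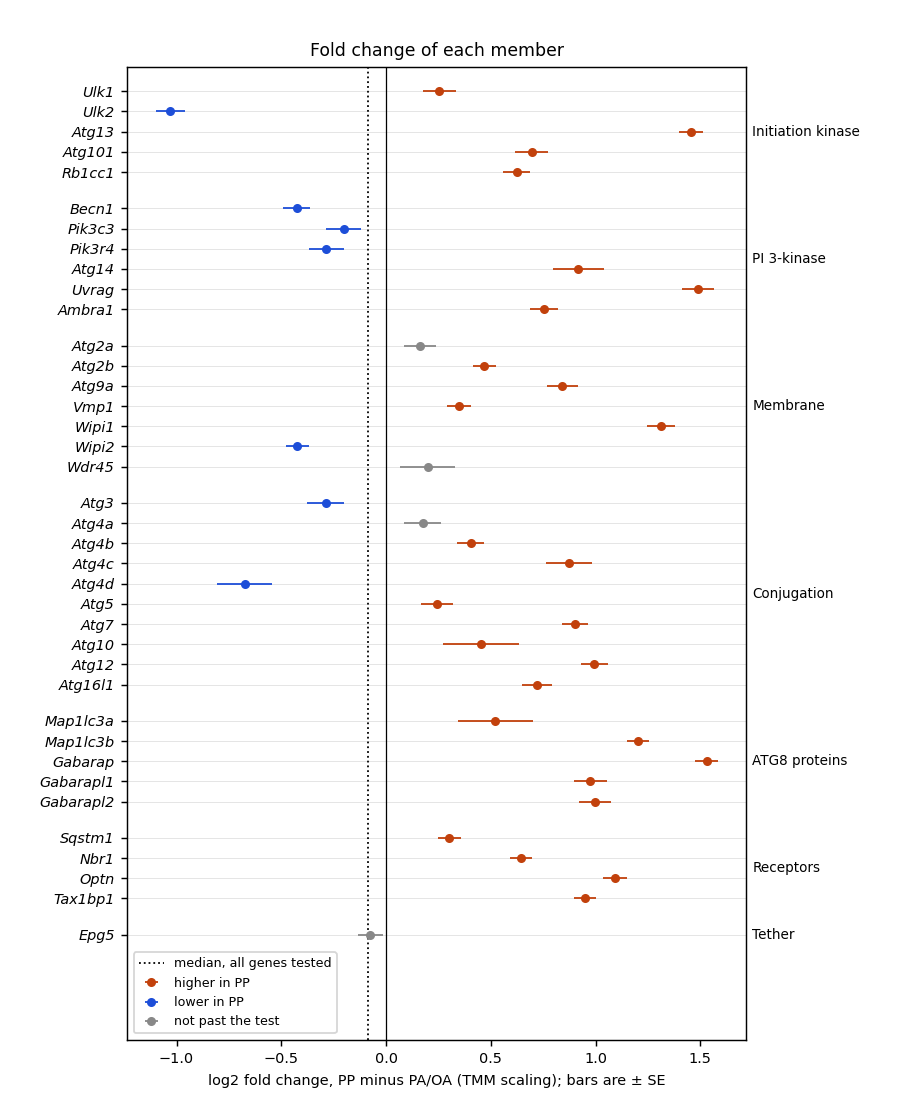
Log2 fold change, PP minus PA/OA with TMM scaling, of each of the 38 genes by role, with bars of ± SE and a dotted line at the median of all genes tested (-0.09). All 5 ATG8 genes and all 4 receptor genes lie to the right of 0 at this scaling, and the 3 core genes of the lipid kinase complex lie to the left.

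A further 10 genes code for the machinery that matures ATG8 proteins and couples them to membrane lipid, and 7 of them rose, 2 fell and 1 did not pass. Of the 7, Atg5 and Atg4b turned sign with library size only. Over all genes tested 35.1% were higher and 39.9% lower. Atg7, the activating enzyme at the head of both conjugation branches (chromosome 6, 114643097 to 114860614), had 88.0, 90.3 and 93.5 CPM in PP, against 49.2, 46.5 and 49.7 CPM in PA/OA. Atg3, the enzyme that transfers ATG8 to lipid (chromosome 16, 45158785 to 45188538), had 24.1, 28.5 and 26.2 CPM in PP, against 31.1, 33.6 and 31.7 CPM in PA/OA. The activating enzyme gene was higher in every PP library, by 0.90 ± 0.06 on the log2 scale (adjusted p = 2.42e-11, edgeR), and the transfer enzyme gene was lower in every PP library, at -0.29 ± 0.09 (adjusted p = 0.00522, edgeR). The call of Atg3 was lost without PP replicate 1 (-0.21, adjusted p = 0.0631, edgeR). Within a library the ratio of Atg7 to Atg3 was 3.65, 3.17 and 3.56 in PP, against 1.58, 1.38 and 1.57 in PA/OA.

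Atg12, the ubiquitin-like protein joined to ATG5 (chromosome 18, 46732417 to 46741579), had 161, 170.4 and 176 CPM in PP, against 86.4, 91.1 and 76.8 CPM in PA/OA. Atg16l1, which carries the joined pair to the membrane (chromosome 1, 87755870 to 87792428), had 73.3, 76.7 and 65.5 CPM in PP, against 44.3, 42.8 and 43.8 CPM in PA/OA. Both rose without overlap, by 0.99 ± 0.06 (adjusted p = 5.15e-12, edgeR) and 0.72 ± 0.07 (adjusted p = 7.12e-09, edgeR). Atg5 itself had 49.2, 47.7 and 51.3 CPM in PP, against 43.5, 44.0 and 37.6 CPM in PA/OA, with a log2 difference of 0.24 that was 0.0067 with upper-quartile scaling (adjusted p = 0.941, edgeR) and -0.19 with library size only (adjusted p = 0.0314, edgeR). Its direction therefore turned with the scaling, while the Atg12 to Atg5 ratio inside a library was 3.27, 3.57 and 3.42 in PP, against 1.99, 2.07 and 2.04 in PA/OA. Atg10, the transfer enzyme for ATG12, was scarce at 6.82 ± 0.748 CPM in PP and 4.96 ± 0.921 CPM in PA/OA. It passed with 0.45 (adjusted p = 0.0277, edgeR), and not without PA/OA replicate 3 (0.31, adjusted p = 0.143, edgeR) or PP replicate 1 (0.40, adjusted p = 0.0772, edgeR). The call was also lost with library size only (0.020, adjusted p = 0.923, edgeR), with upper-quartile scaling (0.22, adjusted p = 0.280, edgeR) and among protein-coding genes alone (0.37, adjusted p = 0.0583, edgeR).

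The 4 ATG4 genes code for proteases that trim ATG8 precursors and release ATG8 from lipid, and they did not move together. Atg4d (chromosome 9, 21265293 to 21277772) had 15.6, 12.2 and 17.6 CPM in PP, against 22.4, 21.3 and 28.8 CPM in PA/OA. Atg4c (chromosome 4, 99193934 to 99259787) had 19.0, 21.2 and 22.0 CPM in PP, against 11.7, 10.7 and 11.6 CPM in PA/OA. Atg4b, the most active form on most ATG8 proteins, had 75.8, 71.0 and 71.3 CPM in PP, against 54.4, 53.3 and 57.3 CPM in PA/OA. Atg4d fell without overlap (-0.67 ± 0.13, adjusted p = 9.04e-05, edgeR) and Atg4c rose without overlap (0.87 ± 0.11, adjusted p = 2.74e-07, edgeR). Atg4b rose by 0.40 (adjusted p = 9.19e-06, edgeR), but stood at -0.031 with library size only (adjusted p = 0.675, edgeR) and at 0.14 with the abundance trend removed (adjusted p = 0.0589, edgeR). Atg4a had 28.7 ± 1.67 CPM in PP and 25.4 ± 1.71 CPM in PA/OA. It did not pass (adjusted p = 0.0802, unadjusted p = 0.0622, edgeR), with a 95% interval of 0.00 to 0.35. It was called higher without PP replicate 3 (0.24, adjusted p = 0.0426, edgeR), and its sign was negative with library size only and with upper-quartile scaling. Relative to Atg4d in the same library, Atg4b was 4.87, 5.84 and 4.04 in PP, against 2.43, 2.50 and 1.99 in PA/OA. Kri1, on the other strand, shares 19.3% of the exon bases of Atg4d and held 750 counts over the PP and 1645 over the PA/OA libraries, so the counts of Atg4d are uncertain.

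Many lysosome and autophagy genes carry the CLEAR element bound by TFEB, which holds the E-box CACGTG, so the promoters of the members were searched for these letters. RefSeq promoter windows (build GRCm38.p6, 250 bases before to 50 after an annotated start) were matched for 31 of the 38 genes. Those not matched were Atg16l1, Rb1cc1, Becn1, Pik3c3, Atg12, Epg5 and Map1lc3a. CACGTG, which reads the same on both strands, stood in the windows of 4 of the 31, or 12.9%, and of 8.09% of the 27025 genes with a window. These were Atg3, Atg5, Atg7 and Atg14. The longer core TCACGTGA stood in 1 member, Atg3, and in 1.12% of all genes. An antioxidant response element, TGACNNNGC on either strand, stood in 5 members or 16.1% (Atg13, Map1lc3b, Tax1bp1, Ulk2 and Vmp1) and in 14% of all genes. The FOXO letters GTAAACA on either strand stood in none of the 31, and in 4.05% of all genes. CACGTG lies within TCACGTGA. For Atg7 and Atg14 the RefSeq start lies inside the gene as the count table draws it, 27999 and 2215 bases from its 5′ end, so these windows are not shown. A match is a description of letters, and says nothing of binding.

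Upstream sequence is shown for the pair of conjugation genes with an E-box close to the start, and for an ATG8 gene that rose with none of these motifs, 5′ to 3′ on the plus strand, with CACGTG or TCACGTGA in capitals. They are from RefSeq, build GRCm38.p6. Atg3 is at chr16:45158579-45158784 and ends before the gene start of the count table, Atg5 at chr10:44268089-44268338 and Gabarapl2 at chr8:111940453-111940702.
Atg3: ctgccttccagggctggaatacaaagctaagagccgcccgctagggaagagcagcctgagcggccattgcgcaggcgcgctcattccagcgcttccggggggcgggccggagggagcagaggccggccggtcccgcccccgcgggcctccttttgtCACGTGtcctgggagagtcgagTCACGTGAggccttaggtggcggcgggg
Atg5: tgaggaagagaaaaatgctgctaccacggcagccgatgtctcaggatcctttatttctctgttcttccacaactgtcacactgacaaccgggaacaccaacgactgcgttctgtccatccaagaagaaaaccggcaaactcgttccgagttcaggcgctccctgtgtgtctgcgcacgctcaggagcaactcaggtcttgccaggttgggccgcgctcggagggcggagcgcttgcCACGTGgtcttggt
Gabarapl2: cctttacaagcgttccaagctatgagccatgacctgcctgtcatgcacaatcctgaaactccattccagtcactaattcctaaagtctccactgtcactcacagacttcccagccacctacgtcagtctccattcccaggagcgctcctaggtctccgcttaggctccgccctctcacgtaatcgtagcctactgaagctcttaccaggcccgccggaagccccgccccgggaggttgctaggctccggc
In Atg3 the E-boxes begin 94 and 71 bases before the RefSeq start, and in Atg5 14 bases before it. Of the 4 members with an E-box, Atg7 and Atg14 were higher in PP (0.90 and 0.92, log2), Atg3 was lower (-0.29) and Atg5 turned sign with the scaling.

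The ATG8 genes, whose products coat the autophagosome, were all higher in PP, where 35.1% of all genes tested were higher and 39.9% lower. Gabarap (chromosome 11, 69991143 to 69994951) had 448, 495 and 458 CPM in PP, against 158, 165 and 162 CPM in PA/OA. Map1lc3b, which codes for LC3B (chromosome 8, 121590361 to 121598760), had 341, 336 and 331 CPM in PP, against 143, 152 and 143 CPM in PA/OA. These are the largest differences of the family, 2.89-fold for Gabarap (log2 1.53 ± 0.05, adjusted p = 3.16e-16, edgeR) and 2.30-fold for Map1lc3b (log2 1.20 ± 0.05, adjusted p = 6.92e-15, edgeR). Gabarapl1 had 58.2, 64.2 and 60.3 CPM in PP, against 33.0, 32.1 and 27.9 CPM in PA/OA. Gabarapl2, which codes for GATE-16, had 50.4, 53.1 and 49.8 CPM in PP, against 24.3, 27.0 and 25.6 CPM in PA/OA. Both were near 2-fold and without overlap, with log2 fold changes of 0.97 ± 0.08 and 1.0 ± 0.08. The counts of these 4 genes were higher under each of the 17 alternatives. Map1lc3a, by contrast, held from 129 to 211 counts per library. Its values were 7.95, 7.64 and 6.19 CPM in PP, against 4.11, 5.06 and 6.00 CPM in PA/OA, close at their nearest, and its rise of 0.52 ± 0.18 (adjusted p = 0.0124, edgeR) was not called with library size only (0.087), with upper-quartile scaling (0.28) or without PA/OA replicate 1 (0.39, adjusted p = 0.0773, edgeR). A processed transcript on the other strand covers 28.3% of the exon bases of Gabarapl1, with 3 counts over the PP and 13 over the PA/OA libraries.

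Summed per length, the 5 ATG8 genes stood at 345, 374 and 349 CPM per kb in PP, against 135, 141 and 137 CPM per kb in PA/OA. The family sum was thus 2.58 times as high in PP at TMM scaling. Unlike the shares, this fold depends on the scaling, and it would be smaller with library size only. Gabarap was the largest component, with 253 ± 13.5 CPM per kb in PP and 87.6 ± 1.81 CPM per kb in PA/OA, and its share of the length-scaled sum was 70.3, 71.7 and 71.1% in PP, against 63.5, 63.2 and 64.2% in PA/OA. The shares of the other 4 genes were lower in PP. Map1lc3b held 12.6% ± 0.588 in PP and 14.1% ± 0.189 in PA/OA, Gabarapl1 8.49% ± 0.116 in PP and 11.2% ± 0.997 in PA/OA, Gabarapl2 6.17% ± 0.0908 in PP and 8.0% ± 0.234 in PA/OA and Map1lc3a 1.73% ± 0.224 in PP and 3.11% ± 0.570 in PA/OA (SD, n = 3 each). For each of the 5 shares the exact two-sided permutation test gave p = 0.1 (adjusted over the 5 shares, 0.1), the smallest that 3 against 3 libraries allow. Shares are free of the scaling between libraries but rest on the gene lengths of the table. Without division by length, Gabarap took 50.6% in PP and 43.7% in PA/OA, and Map1lc3b took 36.5% in PP and 39.6% in PA/OA.

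**Figure D4:**
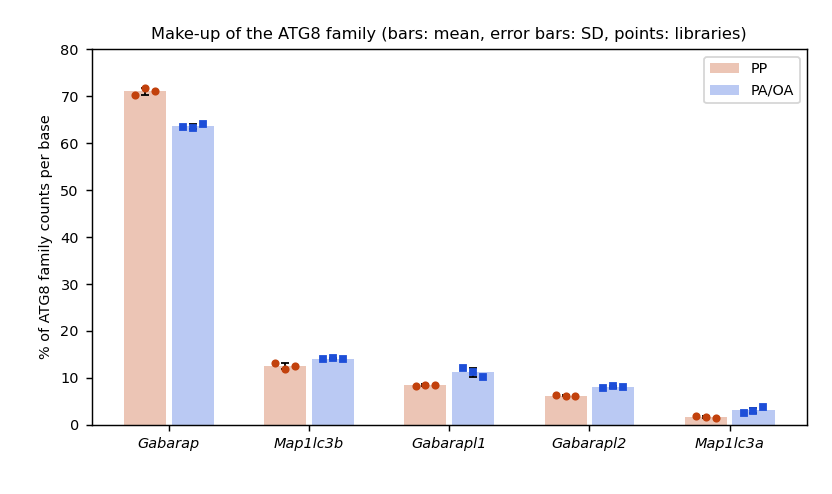
Share of each ATG8 gene in the length-scaled counts of the family, in percent, with bars for the group mean, error bars for the SD over 3 libraries and points for single libraries, PP left of PA/OA. Gabarap takes 71.0% in PP and 63.6% in PA/OA, and each other gene has a lower share in PP.

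The 4 receptor genes were called higher by unequal amounts, but Sqstm1 was lower with library size only and with the abundance trend removed. Genes called higher made up 35.1% of all genes tested. Optn, the receptor optineurin for ubiquitin-tagged mitochondria and bacteria (chromosome 2, 5020642 to 5064051), had 136, 134 and 128 CPM in PP, against 59.3, 63.8 and 63.2 CPM in PA/OA. Tax1bp1 (chromosome 6, 52713729 to 52766780), a receptor for protein aggregates, had 398, 392 and 411 CPM in PP, against 209, 214 and 198 CPM in PA/OA. Nbr1, which acts on aggregates and peroxisomes (chromosome 11, 101552149 to 101581951), had 328, 323 and 333 CPM in PP, against 213, 217 and 198 CPM in PA/OA. None of these groups overlapped, with log2 fold changes of 1.09 ± 0.06 (adjusted p = 2.78e-13, edgeR), 0.95 ± 0.05 (adjusted p = 4.22e-13, edgeR) and 0.65 ± 0.05 (adjusted p = 3.31e-10, edgeR). All 3 remained higher under each of the 17 alternatives, Nbr1 by as little as 0.14 with the abundance trend removed.

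Sqstm1 codes for p62, the best known receptor of ubiquitin-tagged cargo, and was the most abundant of the 38 genes per length, with 374 ± 14.4 CPM per kb in PP and 303 ± 14.6 CPM per kb in PA/OA. It had 1253, 1302 and 1206 CPM in PP, against 980.0, 998 and 1073 CPM in PA/OA, which did not overlap. At TMM scaling its log2 fold change was 0.30 ± 0.05 (adjusted p = 2.88e-05, edgeR), but it was 0.064 with upper-quartile scaling (adjusted p = 0.275, edgeR), -0.13 with library size only (adjusted p = 0.0204, edgeR) and -0.42 with the abundance trend removed (adjusted p = 1.22e-07, edgeR). The direction of Sqstm1 thus differed between scalings. Mrnip, on the other strand, shares 17.3% of the exon bases of Sqstm1 and held 200 counts over the PP and 156 over the PA/OA libraries. Relative to Sqstm1 in the same library the ATG8 genes were higher in PP. The Gabarap to Sqstm1 ratio was 0.357, 0.380 and 0.379 in PP, against 0.161, 0.165 and 0.151 in PA/OA, and the Map1lc3b to Sqstm1 ratio 0.272, 0.258 and 0.275 in PP, against 0.146, 0.152 and 0.134 in PA/OA. Optn relative to Sqstm1 was 1.73-fold higher in PP, Tax1bp1 1.57-fold and Nbr1 1.27-fold. Summed per length, the ATG8 family was 0.695, 0.734 and 0.722 of the sum of the 4 receptors in PP, against 0.376, 0.385 and 0.356 in PA/OA.

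Epg5, which tethers autophagosomes to lysosomes (chromosome 18, 77938467 to 78035027), had 124, 115 and 129 CPM in PP, against 137, 124 and 126 CPM in PA/OA. The groups overlapped and the gene was not called (adjusted p = 0.263, edgeR), with a 95% interval of the log2 fold change of -0.19 to 0.04. It was called lower with library size only (-0.51), with upper-quartile scaling (-0.31), with the abundance trend removed (-0.46) and among protein-coding genes alone (-0.16).

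**Figure D5:**
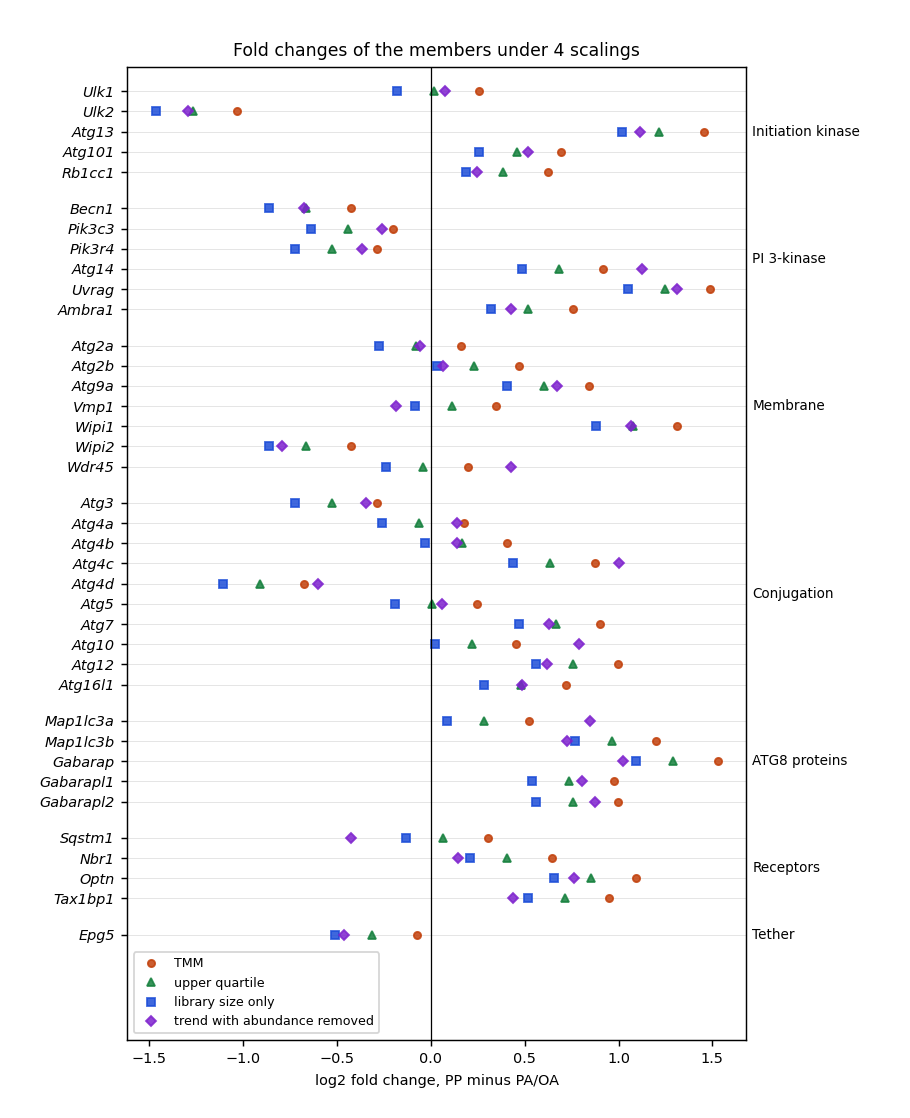
Log2 fold change, PP minus PA/OA, of each of the 38 genes under TMM scaling, upper-quartile scaling, library size only, and removal of the trend with abundance. Ulk2, Wipi2, Becn1 and Atg4d stay below 0 and Atg13, Uvrag, Wipi1, Gabarap and Map1lc3b above 0 at each of the 4, while Sqstm1, Vmp1, Atg5 and Ulk1 lie on both sides.

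Of the 38 genes, 19 were called higher and 5 lower (Ulk2, Becn1, Pik3r4, Wipi2 and Atg4d) at TMM scaling and at each of the 17 alternatives. Of the 10996 genes tested at every setting, 25.0% were called higher and 29.3% lower at all of them. Spearman's rho between log2 fold change and average log2 CPM was 0.259 over the 38 members and 0.455 over the 15718 genes tested, which share libraries and are not independent. With gene length it was -0.209 over the members and 0.093 over all genes tested. In average log2 CPM the members ranged from the 38.6th percentile of the genes tested for Atg10 to the 99.5th for Sqstm1.

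Other genes of the route were described from 3 lists, with counts at TMM scaling only. Of 17 receptors for particular organelles and cargo, 16 were tested, and 14 rose, 1 fell and 1 did not pass. That is 87.5% higher, beside 35.1% higher and 39.9% lower over all genes tested, and their median log2 fold change was 0.87, against -0.09 over all genes. The mitophagy receptor genes Bnip3 and Bnip3l (NIX) led. Bnip3 had 737, 670.4 and 739.5 CPM in PP, against 147, 151 and 119.8 CPM in PA/OA, and Bnip3l had 595, 644 and 613 CPM in PP, against 176, 190.2 and 151 CPM in PA/OA. These are 5.14-fold and 3.58-fold differences (log2 2.36 ± 0.07 and 1.84 ± 0.07) with no overlap, and Tollip, an adaptor for ubiquitin-tagged aggregates, rose by 1.44 ± 0.06. Wdfy3, which codes for the aggregate scaffold ALFY, was the one that fell, with 61.5 ± 7.10 CPM in PP and 135 ± 10.3 CPM in PA/OA. Ccpg1, a receptor of the endoplasmic reticulum, had too few counts to be tested.

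Of 14 genes of autophagosome fusion with lysosomes, 7 rose, 5 fell and 2 did not pass at TMM scaling. The smallest of the 7 rises was 0.23 (log2), less than the median shift of all genes with library size only (-0.43). The split thus depends on the scaling. The share that fell, 5 of 14, was near the 39.9% of all genes tested that were lower, and 35.1% of all genes were higher. The median was 0.14, against -0.09 over all genes. Stx17, the SNARE of the finished autophagosome, had 6.44, 7.42 and 8.51 CPM in PP, against 16.7, 17.7 and 16.5 CPM in PA/OA. Snap29, its partner SNARE, had 12.0 ± 0.698 CPM in PP and 16.2 ± 1.94 CPM in PA/OA. These SNARE genes were lower in PP, with log2 values of -1.18 ± 0.13 (adjusted p = 3.09e-08, edgeR) and -0.43 ± 0.12 (adjusted p = 0.00245, edgeR). Vps33a, of the HOPS tethering complex, was lower as well at -1.0 ± 0.09, as were Ykt6 (-0.38 ± 0.06) and Plekhm1 (-0.39 ± 0.07). Tecpr1, a tether that binds the ATG12 and ATG5 pair, rose by 1.39 ± 0.07, the HOPS gene Vps11 by 1.13 ± 0.07 and the late endosome GTPase gene Rab7 by 0.85 ± 0.05. Of the 6 HOPS genes listed, 4 were higher, 1 was lower and 1 did not pass at TMM scaling.

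Of 19 accessory genes, 15 rose, 3 fell and 1 did not pass. That is 78.9% higher, beside 35.1% higher and 39.9% lower over all genes tested, and the median was 0.78, against -0.09. Tmem41b, a scramblase that works with VMP1, had 89.2, 94.4 and 90.9 CPM in PP, against 34.1, 30.0 and 28.9 CPM in PA/OA. Sh3glb1, which binds UVRAG, rose by 1.37 ± 0.07, and C9orf72 by 1.35 ± 0.06. C9orf72 forms a complex with SMCR8 and WDR41. Smcr8, named after its values were seen, rose by 1.18 ± 0.06, and Wdr41 had 7.49, 7.09 and 10.4 CPM in PP, against 29.8, 30.4 and 29.6 CPM in PA/OA, a fall without overlap (-1.84 ± 0.12, adjusted p = 1.18e-11, edgeR). The other 2 that fell were Atg9b, at -0.21 ± 0.08, and Trp53inp2, at -0.15 ± 0.06, both small. The call of Atg9b was lost without PA/OA replicate 1 or PP replicate 3, and that of Trp53inp2 without PA/OA replicate 1 or 3 or any 1 of the PP libraries.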

How the data were processed

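The authors deposited 1 table of raw counts per gene, made with featureCounts on build mm10, per the submitters' processing notes, which also name DESeq2 1.16.1 without its role. The gene lengths in bases came with that deposited table. The sources used here give no aligner, annotation or strand setting. Per the labels' protocols mRNA was isolated by poly(A) selection or rRNA removal, without saying which. Of low counts (1 to 20), 57.1% to 61.5% were even.

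The test was run on the counts with edgeR 4.0.16 in R 4.3.3 (filterByExpr, 15718 genes kept, TMM, quasi-likelihood F-test, two-sided, Benjamini-Hochberg, threshold 0.05). The fit was tested on simulated data in which few genes changed, in both directions. That check does not bear on the choice of scaling. CPM are TMM-scaled, CPM per kb divide them by gene length, and SEs come from the fold change and F. A 95% interval is the fold change ± 1.96 SE, unadjusted, and is somewhat narrower than the F-test itself would give. Libraries of a group differed beyond sampling noise (chi-square per gene 3.16 to 5.04 on halved counts), and each was treated as 1 replicate. That spread may be technical. Ratios and shares use raw counts within a library (exact permutation test, SciPy 1.17.1).

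Members and lists were chosen with earlier results of these data known. All 38 members are named. Of each other list the 3 largest rises and falls among genes that passed, and up to 5 genes against its direction, are named. Settings tried were DESeq2 1.42.0 (size factors and tool), library size only, upper quartile, filters, limma-voom 3.58.1, protein-coding genes, the replicate number as a block, halved counts, each library's lowess trend with abundance removed (span 0.4), and leaving out each library. Another annotated gene lies over 20 members, and 14 share exon bases with one (GENCODE M21, in which 36 of 38 members have the table's start and end). Where strand was not used, their counts are uncertain. For Atg9a, Wdr45 and Vmp1 a sharing gene lies on the same strand, so their counts are uncertain at any strand setting.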

Additional observations from a re-analysis of the deposited data

How the results depend on the processing

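Over 38 members and 17 alternatives, 596 of 646 fold changes kept their direction and their side of the threshold, 25 lost the call, 11 gained one and 14 changed sign. The count of members called higher was 27, from 26 to 29 when 1 library was left out, and that of members called lower was 7, from 5 to 7 there, and 13 with library size only. That setting turned Ulk1 to -0.18, Atg2a to -0.27, Vmp1 to -0.086, Wdr45 to -0.24, Atg4a to -0.26, Atg4b to -0.031, Atg5 to -0.19 and Sqstm1 to -0.13. Upper-quartile scaling turned Atg2a to -0.077, Wdr45 to -0.039 and Atg4a to -0.062. Removal of the abundance trend turned Atg2a to -0.060, Vmp1 to -0.18 and Sqstm1 to -0.42, and called Wdr45 higher (0.43). Relative to TMM scaling, these settings shift all genes, or shift abundant genes down and scarcer ones up, by construction. Wdr45 moved up in that way from 0.20 at TMM scaling. TMM scaling is itself a shift from library size, with factors of 1.155 to 1.171 in PA/OA and 0.849 to 0.867 in PP. Which scaling is nearest the truth was not tested.

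No pairing of the libraries by replicate number was seen. Deviations of same-numbered libraries from their group means correlated at 0.005, 0.003 and -0.023, and not every library correlated best with its own number. With 3 libraries per group these values cannot exclude a pairing. With the replicate number as a block, 28 members were higher and 7 lower, against 5427 and 6088 of all genes. Atg2a was added to the members called higher (0.16, adjusted p = 0.0436, edgeR). Atg10 and Map1lc3a held 109 to 211 counts per library, and both stayed called with halved counts.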
